A study of Mus musculus with 6 samples.

Results

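The CCN genes Ccn1 to Ccn5 were followed in articular cartilage and the underlying bone of the tibia, dissected in 1 piece, from Frzb-/- and wild-type mice. Members were taken by name, as every probe set (a group of array probes that reads a transcript) assigned to a single gene that is a listed member. This gave 10 probe sets of 30618 in all, for 5 genes of 13817, with 4 probe sets for Ccn1, 1 for Ccn2, 2 for Ccn3, 2 for Ccn4 and 1 for Ccn5. RNA of 6 male C57Bl/6J mice aged 6 weeks was hybridised to Affymetrix Mouse Genome arrays, 1 joint and 1 array per mouse, and values are log2 RMA expression values. The 3 wild-type mice carry the titles 6-1, 8-1 and 9-1. The 3 mice labelled Frzb-/- carry the titles 6, 14 and 17 and come from a knockout line that was back-crossed to C57Bl/6J. Mice 14 and 17 formed the Frzb-/- group. Mouse 6 is shown apart, because the study re-genotyped a labelled mouse as heterozygous and left it out.

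CCN proteins are secreted, cysteine-rich proteins of the matrix that signal to cells more than they build structure. They bind integrins, heparan sulfate proteoglycans and growth factors through a row of modules, of which the first resembles that of IGF-binding proteins. CCN2 is best known in this tissue from the growth plate, where it promotes chondrocyte growth, matrix production and vessel ingrowth. Ccn4 and Ccn5 were first found as genes induced by Wnt1, and FRZB is a secreted WNT antagonist, so the question here is how the family is expressed where that antagonist is missing. The genes are scattered over the genome. On the mouse build GRCm38.p6 Ccn1 lies on chromosome 3 (145646971 to 145649985), Ccn2 on chromosome 10 (24595442 to 24598683), and Ccn3 (54745910 to 54753762) and Ccn4 (66891369 to 66923201) on chromosome 15, 12.1 Mb apart. Ccn5 (163820752 to 163833146) shares chromosome 2 with Frzb, at a distance of 83.4 Mb.

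Of the 5 members Ccn1 was matched in the RefSeq promoter table, and the promoters of Ccn2, Ccn3, Ccn4 and Ccn5 were not analysed here. Ccn1 is known as an immediate target of YAP and its DNA-binding partners of the TEAD family, so its promoter is shown with their motif. The 250 bases before its start site (RefSeq, GRCm38.p6, chr3:145649986-145650235, minus strand) are given 5′ to 3′ with the TEAD letters in capitals.
Ccn1 promoter: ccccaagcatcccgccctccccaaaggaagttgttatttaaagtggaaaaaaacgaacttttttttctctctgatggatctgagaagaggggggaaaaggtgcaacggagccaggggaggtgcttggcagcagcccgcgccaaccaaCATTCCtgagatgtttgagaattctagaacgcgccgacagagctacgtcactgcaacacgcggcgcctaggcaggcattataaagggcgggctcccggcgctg
The TEAD motif GGAATG, searched on both strands, occurred once, in its reverse form, from position -103 relative to the start. Of 32851 mouse promoter windows of this length 12.6% hold it. The TATA letters TATAAA occurred from position -25, and 12.4% of windows hold them on either strand. There was no match in this window for the TCF/LEF motifs ATCAAAG and TTCAAAG (3.21% and 4.46% of windows), the SMAD motif CAGACA (17.1%), the AP-1 motif TGACTCA with its reverse form TGAGTCA (4.46%) or the CArG box of SRF (1.47%). These letter matches are a description and were not tied to binding.

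In brief, Ccn3 and Ccn5 rose in the Frzb-/- mice, and Ccn1, Ccn2 and Ccn4 had smaller differences in the same direction that did not pass the test. A probe set passed when limma's moderated test gave a Benjamini-Hochberg adjusted p under 0.01 over all 30618 probe sets and the absolute log2 fold change was above 1, the thresholds of the study. Of the 10 CCN probe sets 3 passed as higher and 0 as lower, beside 2.34% of all probe sets passing as higher and 5.09% as lower. The count was 1 without wild-type mouse 6-1, 0 without wild-type mouse 8-1 and 2 without wild-type mouse 9-1. Over all probe sets 717 passed as higher with all 5 mice, and 570, 298 and 558 in these fits. As lower 1558 passed with all 5 mice, and 1234, 676 and 1310 in these fits. Without wild-type mouse 8-1, 8 CCN probe sets had an unadjusted p under 0.05 in limma, beside 9659 of all 30618. With all 5 mice these numbers were 7 and 12006. Fits without mouse 14 or 17 hold 1 Frzb-/- mouse, and fewer of all probe sets passed in them. Their log2 fold changes are given below, and their counts of passing genes are not. At an adjusted p under 0.05 alone 5 of the 10 were higher and 0 lower, beside 11.7% and 14.8% of all. The log2 fold change was above 0 at 10 of the 10 probe sets and at 51.7% of all. The Frzb-/- arrays lay above all 3 wild-type arrays, without overlap, at 8 of the 10 and at 27.5% of all probe sets. By gene this held for 5 of 5 at the brightest probe set and for 31% of all genes. The median log2 fold change of the 5 genes, each at its brightest probe set, was 0.61, and that of all 13817 genes was 0.04. Because the tissue was taken in bulk, a larger share of a cell type in the RNA cannot be told apart from more RNA of the gene per cell. Such a share can also grow where that of other cell types is smaller, which was not tested.

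**Figure D1:**
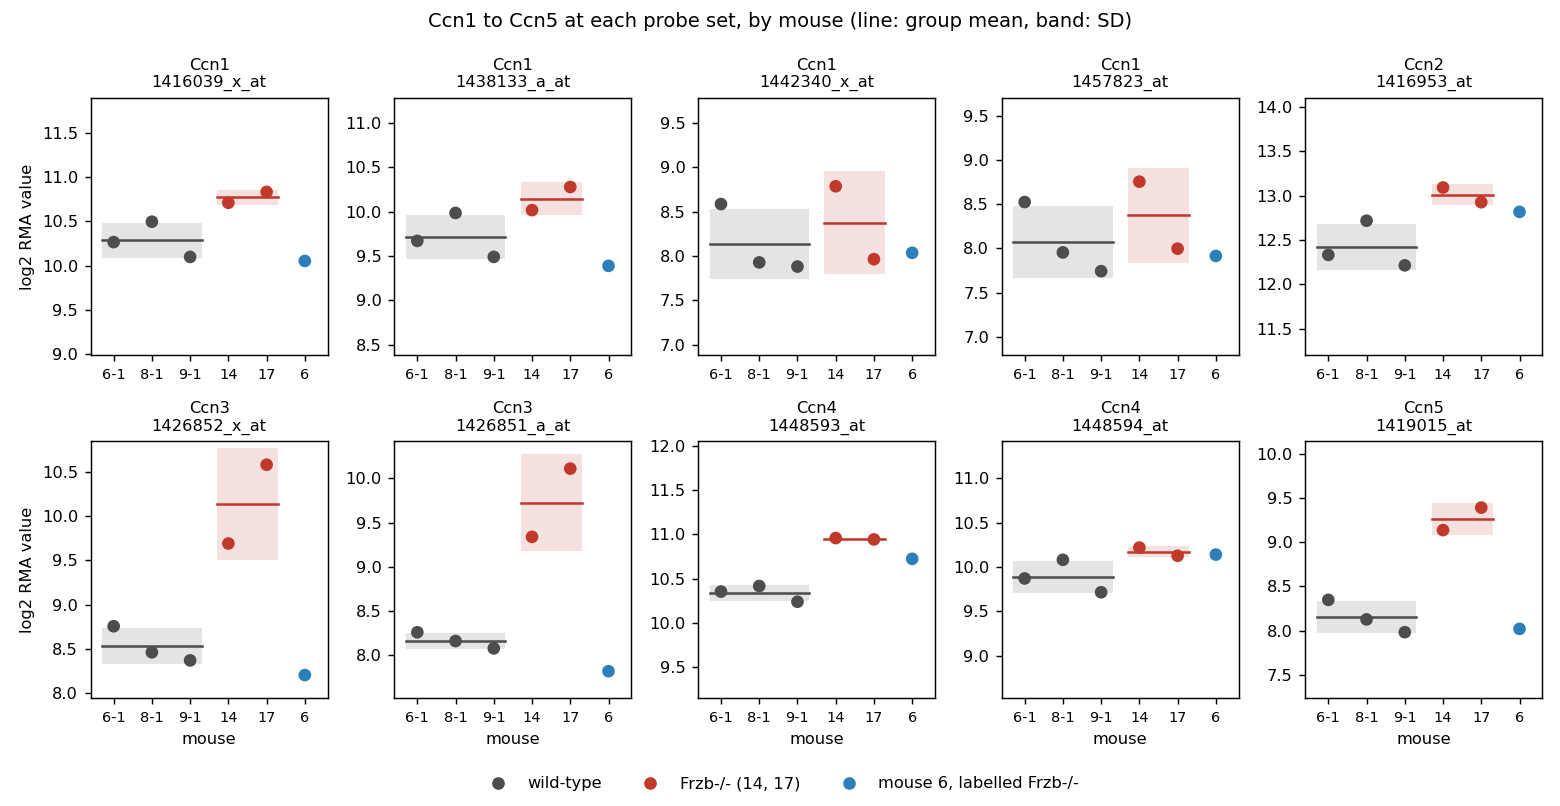
Log2 RMA expression value (vertical axis) of each mouse (horizontal axis) at the 10 CCN probe sets, with wild-type mice in grey, Frzb-/- mice 14 and 17 in red and mouse 6 in blue; lines are group means, bands are SD, and every panel spans the same height in log2 units. At both Ccn3 probe sets mice 14 and 17 lie far above the wild-type mice and apart from each other, and at the first Ccn4 probe set they lie together at 10.96 and 10.94.

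Frzb itself, the targeted gene, was low in all labelled mice. At its brighter probe set the value was 10.02, 10.79 and 10.16 in wild-type mice 6-1, 8-1 and 9-1, 7.02 and 6.42 in mice 14 and 17, and 6.93 in mouse 6. The array of mouse 6 nevertheless was closer to the wild-type arrays (Pearson's r 0.983 to 0.991 over all probe sets) than to those of mice 14 and 17 (0.940 to 0.957). Mice 14 and 17 correlated at 0.938 to 0.967 with the wild-type mice. Across all probe sets 717 were called higher and 1558 lower in mice 14 and 17, and with mouse 6 added to them limma called 0, with 3534 at an unadjusted p under 0.05.

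Ccn3, long known as Nov and studied as a brake on proliferation in several cell types, showed the largest change of the family. At its brighter probe set (1426852_x_at) wild-type mice 6-1, 8-1 and 9-1 read 8.76, 8.46 and 8.37, and Frzb-/- mice 14 and 17 read 9.69 and 10.58. The lowest Frzb-/- value stood 0.93 above the highest wild-type value, and mouse 17 stood 0.89 above mouse 14. The group means were 8.53 ± 0.20 (SD, n = 3) and 10.13 ± 0.63 (SD, n = 2), which differ by 1.60 on the log2 scale (standard error 0.26, adjusted p = 0.00615), or 3.04-fold with a 95% interval of 1.97 to 4.69. The _x_at suffix of this probe set marks probes that may also match other transcripts.

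The second Ccn3 probe set (1426851_a_at), designed on the same transcript record, read 8.26, 8.16 and 8.08 for wild-type and 9.34 and 10.11 for Frzb-/-. The order of the mice was the same as at the first. Its log2 fold change was 1.56 (standard error 0.22, adjusted p = 0.00384), or 2.94-fold with a 95% interval of 2.04 to 4.24. Among all probe sets the log2 fold changes of the pair stood at percentiles 99.6 and 99.4. The gap between mice 14 and 17 was wide as well, at percentiles 98.0 and 96.4 of this gap over all probe sets. Without mouse 17 the log2 fold changes were 1.16 and 1.17, and without mouse 14 they were 2.05 and 1.94. Both probe sets lost the call by the adjusted p without wild-type mouse 6-1 (0.0135 and 0.0121), wild-type mouse 8-1 (0.0283 and 0.0194) or mouse 17 (0.0205 and 0.0121), and the brighter one without wild-type mouse 9-1 (0.0152). The direction held in all of these fits.

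Ccn5, known as Wisp2, lacks the C-terminal module that the other members carry. Its single probe set (1419015_at) gave 8.35, 8.13 and 7.98 in wild-type mice 6-1, 8-1 and 9-1 and 9.14 and 9.39 in mice 14 and 17. The groups were 0.79 apart at their nearest values, and mice 14 and 17 differed by 0.25, at percentile 61.3 of this gap. The means were 8.15 ± 0.18 (SD, n = 3) and 9.26 ± 0.18 (SD, n = 2), which differ by 1.11 on the log2 scale (standard error 0.16, adjusted p = 0.00352), or 2.16-fold with a 95% interval of 1.67 to 2.78. The interval reaches below the fold threshold. Without mouse 17 the log2 fold change was 0.98 (adjusted p = 0.0272), and the call was also lost by the adjusted p without mouse 14 (0.0113) or wild-type mouse 8-1 (0.0197). The study names this gene among its up-regulated WNT target genes, so its selection was not independent of these arrays.

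Ccn4, known as Wisp1 and expressed by cells of the osteoblast lineage, was read by 2 probe sets. At the brighter probe set (1448593_at) wild-type mice 6-1, 8-1 and 9-1 read 10.35, 10.42 and 10.24, and mice 14 and 17 read 10.96 and 10.94. The groups did not overlap, with 0.53 between them, and the gap between mice 14 and 17 stood at percentile 4.42 of all probe sets. The log2 fold change was 0.61 (standard error 0.12, adjusted p = 0.011), a 1.53-fold difference with a 95% interval of 1.26 to 1.86, so that it missed both the p and the fold threshold. At the dimmer probe set (1448594_at), designed on the same transcript record, wild-type mice read 9.87, 10.08 and 9.71 and Frzb-/- mice 10.22 and 10.13. The nearest values there were 0.05 apart, and the log2 fold change was 0.28 with a 95% interval of -0.06 to 0.63 (adjusted p = 0.193). The pair therefore gave differences of unlike size, and this unlikeness was not tested.

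Ccn2, known as Ctgf, is the member best studied in growth plate cartilage and fibrosis. Its probe set (1416953_at) gave 12.33, 12.72 and 12.21 in wild-type mice 6-1, 8-1 and 9-1 and 13.09 and 12.93 in mice 14 and 17. The groups did not overlap, although wild-type mouse 8-1 lay within 0.21 of mouse 17. On the log2 scale the means differed by 0.59 (standard error 0.17, adjusted p = 0.047), a 1.50-fold difference with a 95% interval of 1.13 to 2.00. This did not pass.

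Ccn1, known as Cyr61 and induced early by growth factors and mechanical load, was read by 4 probe sets that fell into 2 pairs. At 1416039_x_at wild-type mice 6-1, 8-1 and 9-1 read 10.27, 10.50 and 10.10, and mice 14 and 17 read 10.71 and 10.83. At 1438133_a_at the readings were 9.67, 9.99 and 9.49 against 10.02 and 10.28. In this pair the groups did not overlap, by 0.21 and 0.03. The log2 fold changes were 0.48 (standard error 0.15, adjusted p = 0.0542) and 0.43 (standard error 0.18, adjusted p = 0.118), and neither passed.

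The other pair of Ccn1 probe sets, 1442340_x_at and 1457823_at, was designed on a single expressed sequence tag and ranked the mice differently. At 1442340_x_at the wild-type animals read 8.59, 7.93 and 7.88 and mice 14 and 17 read 8.79 and 7.96. At 1457823_at the readings were 8.52, 7.95 and 7.74 against 8.75 and 8.00. Wild-type mouse 6-1 and mouse 14 were high at both and the groups overlapped, with log2 fold changes of 0.24 and 0.30 (95% intervals -0.47 to 0.96 and -0.39 to 1.00). Without mouse 14 these turned to -0.17 and -0.08. The brightest Ccn1 probe set, 1416039_x_at, was designed on a RefSeq transcript record. It and 1442340_x_at carry the _x_at suffix, so their probes may also match other transcripts. Which pair reads the Ccn1 transcript better cannot be told from the values alone.

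Ccn6, the remaining family member outside the list, had a probe set (1444050_at) with values of 3.74 to 3.85 in the wild-type mice and 3.61 and 3.87 in mice 14 and 17. The groups overlapped, and the log2 fold change was -0.06 (95% interval -0.37 to 0.25, adjusted p = 0.75). These values lay far below the array medians of 7.32 to 7.45, so a change in Ccn6 could be missed here.

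**Figure D2:**
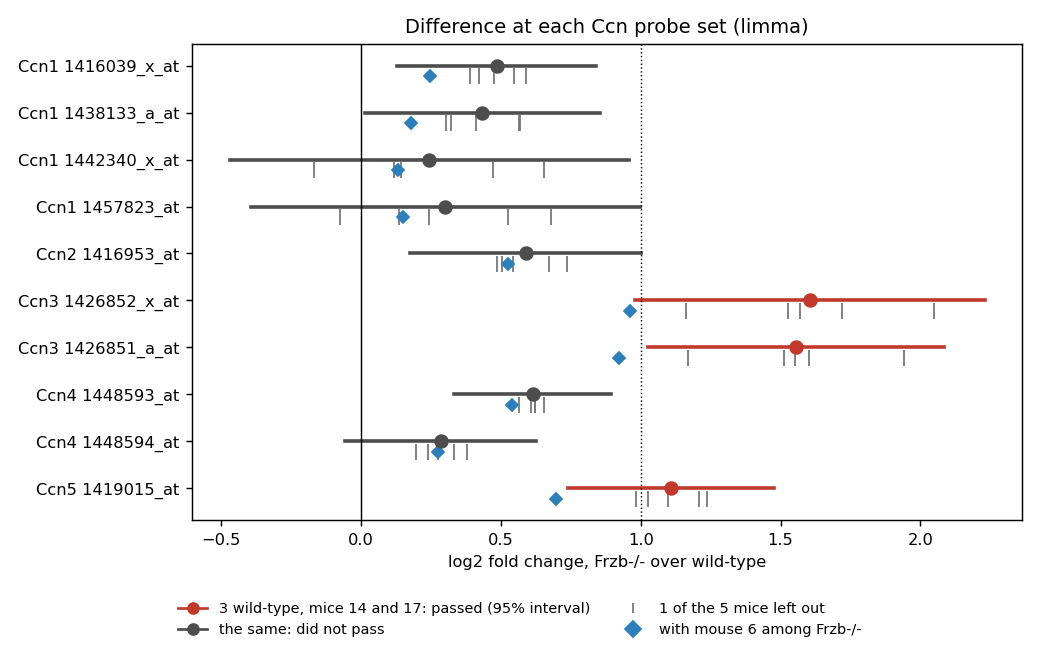
Log2 fold change of Frzb-/- over wild-type mice (horizontal axis) at each CCN probe set (vertical axis), with 95% intervals from limma for the 3 wild-type mice against mice 14 and 17; grey ticks leave out 1 of the 5 mice and blue diamonds add mouse 6 to the Frzb-/- group. The Ccn3 and Ccn5 intervals lie to the right of 0.74, and the dotted line marks the fold threshold of 1.

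Mouse 6 split the family. For Ccn3 it lay below the wild-type range at both probe sets, with 8.21 and 7.82, for Ccn5 it lay within the range at 8.02, and for the first pair of Ccn1 probe sets it lay below the range at 10.05 and 9.39. For Ccn2 it lay above the wild-type range at 12.82, between wild-type mouse 8-1 (12.72) and mouse 17 (12.93). For Ccn4 it lay above the range at both probe sets with 10.72 and 10.14. At the other pair of Ccn1 probe sets it lay within the range. Over all probe sets mouse 6 lay below the wild-type range for 22.7% and above it for 34.4%, so lying outside the range is common.

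In a fit with mouse 6 as a group of its own, 0 CCN probe sets passed against wild-type, with 1 at an unadjusted p under 0.05, and 0% of all probe sets passed. The largest difference upwards was that of Ccn2, 0.40 (95% interval -0.13 to 0.92, adjusted p = 0.76), followed by Ccn4 with 0.39 (95% interval 0.03 to 0.74, adjusted p = 0.689). Against mice 14 and 17 the differences of mouse 6 were -1.93 and -1.90 for Ccn3 (adjusted p = 0.0157 and 0.0101) and -1.24 for Ccn5 (adjusted p = 0.0121), and -0.19 for Ccn2 (95% interval -0.75 to 0.36) and -0.23 for Ccn4 (95% interval -0.60 to 0.15). None of these passed. Mouse 6 gave 1 array, so the spread behind these intervals and p-values came from the other groups. When mouse 6 was counted among the Frzb-/- mice, 0 CCN probe sets passed, with 2 at an unadjusted p under 0.05, and the log2 fold changes of Ccn3 and Ccn5 were 0.96, 0.92 and 0.70 while those of Ccn2 and Ccn4 were 0.52 and 0.54.

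Over the 6 arrays, at the brightest probe set of each gene, Ccn3 and Ccn5 followed each other (Pearson's r 0.982) and so did Ccn2 and Ccn4 (r 0.928). Ccn1 ran with Ccn5 (r 0.904) and Ccn3 (r 0.892) more than with Ccn2 (r 0.681) or Ccn4 (r 0.677), and the lowest value was that of Ccn2 with Ccn3 (r 0.576). Mice 14 and 17 stand apart from the other arrays, so these values describe 6 points that are not evenly spread. Of 9115 genes at or above the median brightness, the closest to Ccn3 were Actg2, the smooth muscle gamma actin (r 0.992), Abca8a, a lipid transporter (r 0.991), and Osbpl1a, an oxysterol-binding protein (r 0.989). Closest to Ccn5 were Rassf8, Vti1b (r 0.999 for both) and Aifm2 (r 0.997). Closest to Ccn4 were Mme, the membrane endopeptidase neprilysin (r 0.999), Tm9sf4 (r 0.993) and the adhesion protein Nectin3 (r 0.992). Closest to Ccn2 were Cd109, a surface protein that binds TGFβ (r 0.990), Ccdc80, a matrix protein (r 0.989), and Commd6 (r 0.986). Closest to Ccn1 were Plin3, a lipid droplet protein (r 0.997), Rnft1 (r 0.995) and Fxyd6 (r 0.985). In all, 428 genes had an r above 0.95 with Ccn5, 201 with Ccn4, 163 with Ccn3, 72 with Ccn1 and 68 with Ccn2, so such closeness is shared by many genes.

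**Figure D3:**
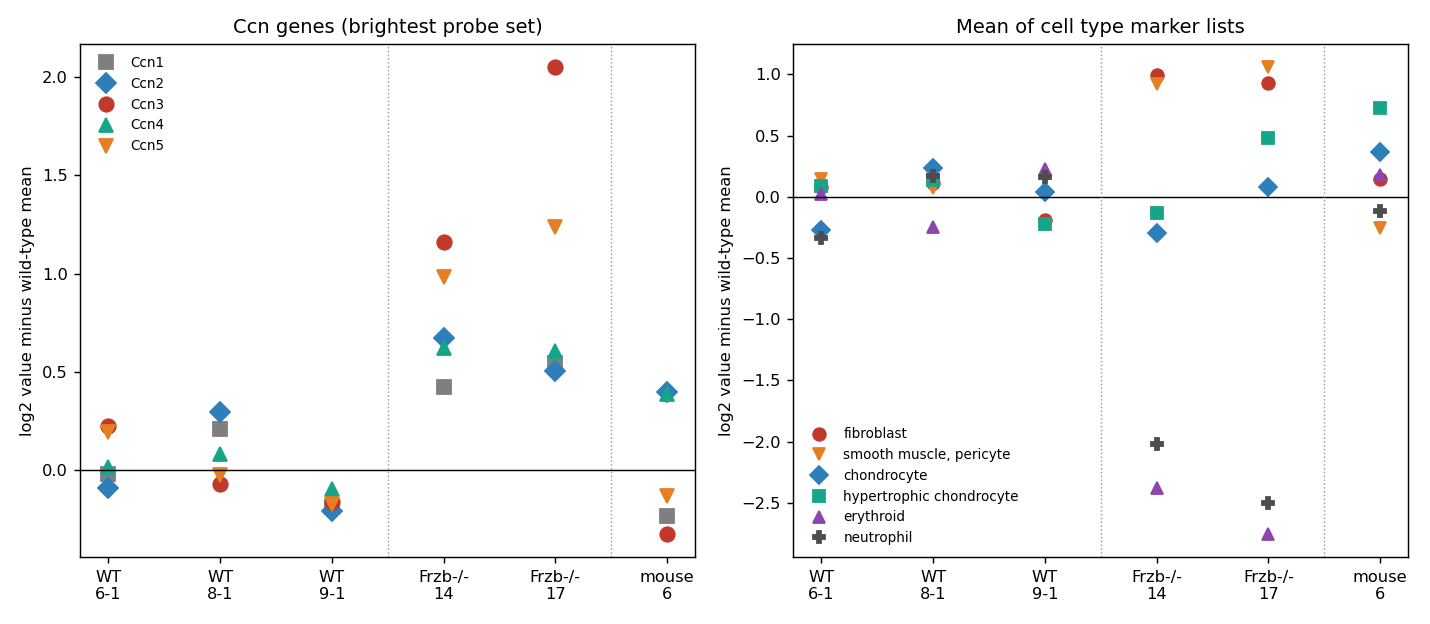
Log2 value minus the wild-type mean (vertical axis) in each mouse (horizontal axis), at the brightest probe set of each CCN gene (left) and as the mean over each cell type marker list (right). For Ccn2 and Ccn4 mouse 6 lies between the wild-type mice and mice 14 and 17, and for Ccn3, Ccn5 and Ccn1 it lies within or below the wild-type range. The erythroid and neutrophil lists are low in mice 14 and 17.

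Markers of other cell types moved with Ccn3 and Ccn5. For the counts in all marker lists, 3.03% of all genes passed as higher and 6.02% as lower at their brightest probe set. Of 10 fibroblast markers 5 rose and 0 fell, among them Thy1 (log2 fold change 1.94), a surface protein of stromal cells, and Dpt (1.77), a dermatan sulfate-binding matrix protein, and Fbln1 (1.57). Pi16, a marker of adventitial fibroblasts, went the other way without overlap, at 8.58, 8.86 and 8.54 in wild-type mice 6-1, 8-1 and 9-1 and 7.59 and 7.94 in mice 14 and 17 (log2 fold change -0.89, adjusted p = 0.00887), and missed the fold threshold. The bright Col3a1, a fibrillar collagen, and Prg4, the lubricin gene, gave 0.70 and 0.85 and did not pass. The mean log2 value of that list was 10.69 to 10.99 in the wild-type mice, 11.87 and 11.80 in mice 14 and 17 and 11.03 in mouse 6. Of 9 smooth muscle and pericyte markers 3 rose and 0 fell, namely Myh11 (1.79), Tagln (1.44) and Acta2 (1.24), all of the contractile apparatus, while the pericyte gene Rgs5 gave 0.83 (adjusted p = 0.0157). This list had list means of 9.55 to 9.91, 10.69 and 10.83, and 9.52. Without wild-type mouse 8-1 the gene count was 2 for the fibroblast list and 2 for the smooth muscle list. In that fit 298 of all probe sets passed as higher, beside 717 with all 5 mice.

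The markers of tendon, endothelium and adipocytes had 1 of 6, 0 of 9 and 1 of 5 genes higher, and 0 lower in each. Thbs4 (1.25) passed in the tendon list and Adipoq (1.21) in the adipocyte list. Larger differences that missed the adjusted p threshold were those of Kera (1.57) and Tnmd (1.48) for tendon and Cidec (1.52) for adipocytes. All 6 tendon and 5 adipocyte genes lay above the wild-type mice without overlap, beside 31% of all genes. In the endothelial list 8 of 9 had an unadjusted p under 0.05 in limma, beside 12006 of all 30618 probe sets. The brightest genes that did not pass were Fmod (0.49) for tendon, Kdr (0.37) and Esam (0.72) for endothelium, and Fabp4 (0.76) and Lpl (0.60) for adipocytes. Without wild-type mouse 8-1 or 9-1 the tendon and adipocyte calls were lost (0 each), while 3 and 2 were called without wild-type mouse 6-1. Without 8-1 and 9-1, 6 and 5 tendon genes had an unadjusted p under 0.05 in limma, and 5 adipocyte genes in either fit. Of all 30618 probe sets 9659 and 10484 did. The list means stood at 8.97 to 9.56 in wild-type against 10.14 and 10.30 in Frzb-/- mice for tendon, 8.37 to 8.82 against 9.23 and 9.14 for endothelium, and 9.84 to 10.49 against 11.20 and 11.06 for adipocytes. In mouse 6 these means were 9.14, 8.49 and 9.67.

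Blood cell markers moved in the other direction, in which 6.02% of all genes passed. Of 6 erythroid markers 5 fell, which were the membrane proteins Epb42 (-3.25), Rhd (-3.15) and Slc4a1 (-2.80), the transcription factor Klf1 (-2.86) and the heme synthesis enzyme Alas2 (-2.42). This list had list means of 11.06 to 11.53 in the wild-type mice, 8.92 and 8.55 in mice 14 and 17 and 11.48 in mouse 6. Of 8 neutrophil markers 8 fell, among them the granule proteins Mmp8 (-3.53), Ltf (-2.68) and Elane (-2.68) and the bright S100a8 (-1.47) and S100a9 (-1.67). Without wild-type mouse 8-1, 5 of the list passed, and 676 of all probe sets passed as lower, beside 1558 with all 5 mice. This list had list means of 13.03 to 13.54, 11.34 and 10.86, and 13.25. The part of these cell types in the CCN values was not tested.

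Cartilage and bone cells are the tissue's own cell types. Of 10 chondrocyte and 5 hypertrophic chondrocyte markers 0 passed. By limma's unadjusted p under 0.05 the counts were 2 and 1, beside 12006 of all 30618 probe sets. The median log2 fold changes of the lists were -0.02 and 0.17. Their brightest genes were Col2a1 (0.03) and Comp (0.24), both of cartilage matrix, and Pth1r (0.17) and Mmp13 (0.40). For mouse 6 both list means were the highest of the 6 arrays. The chondrocyte mean was 12.82 in mouse 6, 12.18 to 12.69 in wild-type mice and 12.16 and 12.53 in mice 14 and 17. The hypertrophic chondrocyte mean was 11.79 in mouse 6, 10.84 to 11.20 in wild-type mice and 10.94 and 11.54 in mice 14 and 17. Of 8 osteoblast and osteocyte markers 2 fell, Sost (-2.57) and Mepe (-1.59), both products of osteocytes, while the bright Col1a1 and Ibsp gave 0.27 and 0.16. Alpl (0.62, adjusted p = 0.0234) and Phex (-0.81, adjusted p = 0.0209) differed without overlap in opposite directions and did not pass. Skeletal muscle markers were measured at a mean log2 value of 13.60 to 14.23 in wild-type mice, 13.92 and 14.23 in mice 14 and 17 and 13.03 in mouse 6, and 0 of 8 passed, with 0.16 for Acta1 and 0.29 for Mylpf (0 by limma's unadjusted p under 0.05).

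The genes known to act around the CCN proteins were read from 10 lists, each gene at its brightest probe set, where 3.03% of all genes passed as higher and 6.02% as lower. Some genes stand in several lists, and a list's count describes it without a test of the list. Receptors came first. Of 17 measured, 1 rose and 2 fell, with a median log2 fold change of 0.35. The one that rose was Lrp1 (1.08, adjusted p = 0.00276), a scavenger receptor that takes up CCN2, and the genes that fell were Itgb2 (-1.64) and Itgam (-1.36), the subunits of the leukocyte integrin Mac-1. The αv and β5 integrin subunits, which bind CCN1 and CCN2, gave 0.35 for Itgav (adjusted p = 0.13) and 0.77 for Itgb5 (adjusted p = 0.0067, under the fold threshold). The count of 3 was 1 without wild-type mouse 8-1, where 298 of all probe sets passed as higher and 676 as lower.

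Among 14 growth factors and matrix proteins that bind CCN proteins 3 rose and 0 fell. They were Igf2 (log2 fold change 1.71) and Igf1 (1.50), the insulin-like growth factors, and Bmp4 (1.26). The matrix proteins Fn1 (fibronectin, 0.72, adjusted p = 0.0126) and Bgn (biglycan, 0.51, adjusted p = 0.0304) did not pass. Of 10 proteases that cleave CCN proteins 3 rose, Mmp2 (1.31), Plat (1.30) and Mmp3 (1.20), and 2 fell, the neutrophil proteases Elane (-2.68) and Ctsg (-2.46). Mmp13 and Mmp9 gave 0.40 and -0.10 and did not pass. Without wild-type mouse 8-1 the partner count of 3 was 1 and the protease count of 5 was 3.

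**Figure D4:**
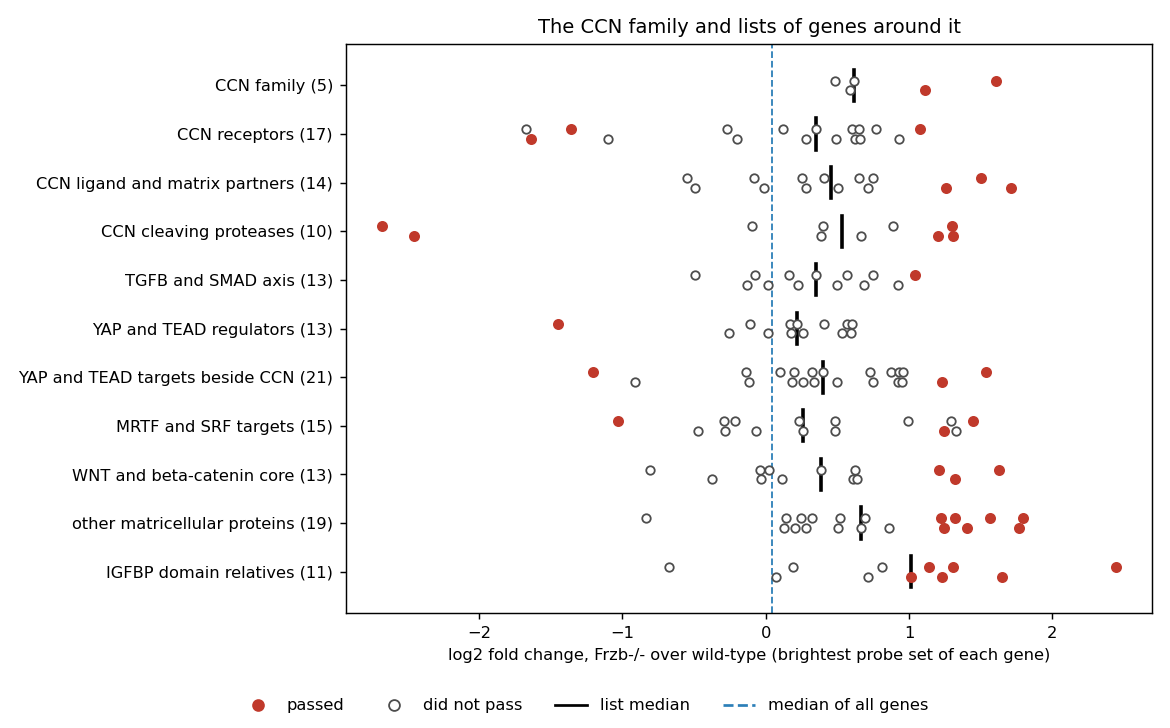
Log2 fold change of Frzb-/- over wild-type (horizontal axis) of each gene of the CCN family and of 10 lists around it (vertical axis, with the number of genes measured), filled where the gene passed; black bars are list medians and the dashed line is the median of all genes, 0.04. The IGFBP domain relatives have the highest list median, 1.01, and 6 of their 11 genes passed as higher.

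The pathways known to induce Ccn1 and Ccn2 were read next. In the TGFβ and SMAD list 1 of 13 rose, the ligand Tgfb3 (1.04), while Tgfbi, a matrix protein induced by TGFβ, gave 0.69 (adjusted p = 0.0117) and the receptor Tgfbr2 0.50. Among 13 regulators of YAP and TEAD 0 rose and 1 fell, the Hippo kinase Stk4 (-1.45), with Wwtr1, the co-activator TAZ, at 0.60 (adjusted p = 0.0323). Of 21 further YAP and TEAD target genes 2 rose, Myof (1.53), a membrane repair protein, and Igfbp3 (1.23), and 1 fell, the kinase Nuak2 (-1.20). Crim1 and Amotl1 gave 0.96 and 0.33 and did not pass. The Tgfb3 call was lost without wild-type mouse 8-1 or 9-1, with 7 genes of the list at an unadjusted p under 0.05 in limma in either fit. The Stk4 call was lost without wild-type mouse 8-1, with 4 such genes in its list. Of all 30618 probe sets 9659 and 10484 had such a p without 8-1 and 9-1. The target count of 3 was 2 without wild-type mouse 6-1 or 8-1.

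Of 15 targets and regulators of MRTF and SRF, a pathway of cell tension that also drives Ccn1 and Ccn2, 2 rose and 1 fell. Acta2 (1.24) and Tagln (1.44) rose, and the focal adhesion protein Zyx (-1.03) fell, while Tpm1 and Myh9 gave 0.26 and -0.29. The count of 3 was 1 without wild-type mouse 8-1. In the WNT and β-catenin list 3 of 13 rose and 0 fell. These were the WNT inhibitors Nkd1 (1.63), Apcdd1 (1.32) and Nkd2 (1.21), of which Nkd1 and Nkd2 are named by the study as up-regulated on these arrays. Ctnnb1, the β-catenin gene, gave 0.02, and Tnfrsf19, a WNT target gene, gave 0.61 (adjusted p = 0.0195). The WNT count was 1 without wild-type mouse 8-1.

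Relatives of the CCN proteins formed the remaining lists. Of 19 other matricellular proteins, which like the CCN proteins modulate cells from the matrix, 7 rose and 0 fell, with a median log2 fold change of 0.66. They included thrombospondin Thbs2 (1.80), the tenascin Tnn (1.77) and fibulin Fbln1 (1.57), while the bright Sparc and Comp gave 0.14 and 0.24. Of 11 secreted proteins with the IGFBP module that CCN proteins carry at their start, 6 rose and 0 fell, with a median of 1.01. Among these were the protease Htra4 (2.44) and the IGF-binding proteins Igfbp6 (1.65), Igfbp7 (1.31) and Igfbp5 (1.01), and the bright Igfbp4 gave 0.19. Mouse 6 had 10.77 for Htra4, near mice 14 and 17 at a mean of 11.14 and above the wild-type mean of 8.70. Without wild-type mouse 8-1 the counts of these 2 lists fell to 4 and 3, and the first fell to 4 without wild-type mouse 9-1.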

How the data were processed

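Values were the deposited log2 RMA expression values: the authors dropped absent and control probe sets of the Affymetrix Mouse Genome arrays and ran RMA (affy 1.20.0, per the submitters' processing notes), which corrects background and normalizes by quantiles. Raw scans and detection calls were not used here. Probe sets were named from the platform's annotation (25090 with a single gene, 677 with several, 4851 with none), and for genes with several probe sets the one with the highest mean over the 6 arrays stood for the gene. Mice 14 and 17 were taken as the Frzb-/- mice that the study compared, since their mean differences are those it printed for its leading genes; the labels do not mark mouse 6. Tests used limma 3.58.1 in R 4.3.3 (lmFit, eBayes, two-sided) on all 30618 probe sets with Benjamini-Hochberg adjustment, after a check on simulated data; intervals are 95%. Tables and figures used Python 3.11.15, numpy 2.4.6, pandas 2.3.3 and matplotlib 3.10.9. Arrays have no read depth, so the number of mice limits the precision. The members and lists were chosen with earlier results of these data known. Named were all CCN probe sets, of each list the 3 largest changes that passed and the 2 brightest genes, and the 3 genes closest to each member. Mmp3, Plat, Pi16, Kera, Tnmd, Cidec, Alpl and Phex were named beyond this rule, after their values were seen. Of 243 listed genes beside the family, those without a probe set were not analysed here. Alternatives were mouse 6 included, each mouse left out, a filter on dim probe sets, cyclic loess, centring on the median, trended and robust moderation, no moderation, array weights, other thresholds and a gene's probe sets averaged or counted if any passed. Each mouse gave 1 array. The p-values of limma set a difference against the spread between these mice after it is moderated towards that of all probe sets.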

Additional observations from a re-analysis of the deposited data

How the results depend on the processing

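With 5 mice in the comparison, the direction of Ccn3 and Ccn5 held in all fits tried and their calls did not. With all 3 labelled mice as the Frzb-/- group, 0 CCN probe sets passed (2 at an unadjusted p under 0.05 in limma). The log2 fold changes were 0.96 and 0.92 for Ccn3 and 0.70 for Ccn5. Of the genes in the other lists 0 passed (59 unadjusted), and of all 30618 probe sets 0 passed (3534 unadjusted). Without moderation of the variances 0 CCN probe sets (4 unadjusted) and 0 listed genes (121 unadjusted) passed, while the log2 fold changes were 1.60 and 1.56 for Ccn3 and 1.11 for Ccn5 by construction. Of all 30618 probe sets 0 passed in that fit (9835 unadjusted). Leaving out each mouse in turn gave 0 to 2 CCN probe sets, 1.16 to 2.05 and 1.17 to 1.94 for Ccn3, 0.98 to 1.24 for Ccn5 and 12 to 51 listed genes that passed, beside 54 with all 5 mice. Of these 12 were without mouse 17 and 30 without wild-type mouse 8-1. At an adjusted p under 0.05 alone 5 CCN probe sets and 121 listed genes passed, beside 11.7% of all probe sets as higher and 14.8% as lower. The Ccn3 and Ccn5 calls held with the dimmer probe sets left out, cyclic loess, median centring, trended and robust moderation, and array weights. The genotype of mouse 6 was not tested. No paired analysis was possible because the groups share no replicate number.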
